A study of Mus musculus with 24 samples.

Results

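Transcription factors in 12 groups of DNA-binding families were followed through retinoid-driven differentiation of P19 cells, a mouse embryonal carcinoma line that can form neurons and glia. The members are the genes whose symbol belongs to the bHLH, forkhead, Sox, T-box, GATA, Zic, Gli, Klf, Egr, nuclear receptor, Ebf, Myt1, Nfi, Tfap2, Etv, Runx, Prdm, Snail or named zinc-finger families, without Foxa2, Prdm8, Tbx2, Tbx18, Tcf21, Nr5a1 and Zscan10. The choice matched symbols and was made with earlier results of these data known. It gave 89 of the 1753 genes listed in at least 1 of 23 tables. Of the 89, 11 are antisense transcripts or proteins that do not bind DNA on their own, such as Foxd2os and the Id proteins.

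WT cells received all-trans retinoic acid (ATRA, an agonist of all RARs) at 1 μM, the RARα agonist BMS753 at 1 μM, the RARβ agonist BMS641 together with the RARγ agonist BMS961 at 0.1 μM each, or ethanol (EtOH, the vehicle). These WT cultures were sampled at days 2, 4 and 10, and WT cells with BMS961 alone at day 10. Cells lacking Rara (raraKO), Rarb (rarbKO) or Rarg (rargKO) were sampled at day 10: raraKO with ATRA, BMS961 or the combination, rarbKO with ATRA, BMS753, BMS961 or the combination, and rargKO with ATRA, BMS753, BMS641 or the combination. All cells grew as a monolayer on gelatin, and day 10 cultures had 4 d of ligand followed by 6 d in Neurobasal medium with N2 and vitamin A-free B27. The mutant lines were made with CRISPR/Cas9 and carry a puromycin cassette.

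Each condition had 1 of the 24 libraries, and every value is the log2 fold change of that library against the single WT EtOH day 2 library. All comparisons therefore share that reference, and no difference has a replicate check. The tables list genes with p up to 0.01 only. A gene that is absent from a table is called not listed, which is not a value of 0 and does not show that it was unresponsive. Read depth is unknown. No day 10 table held a log2 fold change nearer to 0 than 2.71, and in the strictest of them the limit was 4.73. The error given with a value is the standard error implied by its p-value, with a median of 1.96 log2 units over the 471 member values. A gene was called up-regulated at a log2 fold change over 2, which is 4-fold, and down-regulated under -2. No vehicle-treated mutant library was used, so line and ligand cannot be told apart in the mutant tables. Rara, Rarb and Rarg were in none of the tables, so the knockouts could not be checked. In these bulk samples fewer cells of a type and less RNA per cell cannot be told apart.

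As background, bHLH factors of the Neurog, Neurod and Atoh groups commit progenitors to neurons, and Hes repressors, which act below Notch, keep progenitors undifferentiated. Sox9 and the Nfi factors act in neural progenitors and in gliogenesis, while Hand, Gata, T-box and Foxc factors pattern mesoderm and mesenchyme. RARs are ligand-bound nuclear receptors that act on such genes directly or through other factors.

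Marker lists of cell types describe the cultures. Of 8 markers of pluripotent cells, 5 (Pou5f1, Nanog, Tdgf1, Utf1 and Fgf4) were down-regulated at day 10 with ATRA in WT cells and 3 with EtOH. Of 10 neuron markers, ATRA up-regulated 5 in WT cells and BMS753 4, while the combination gave 1 and EtOH 0. Of 7 mesenchyme markers, 5, 5, 1 and 0 were up-regulated in the same order. Of 5 astrocyte markers, Gfap, Aqp4 and Slc1a3 were in no table, S100b was up-regulated in rarbKO cells with ATRA (6.90), and Aldh1l1 was down-regulated in 13 tables, WT EtOH at day 10 among them (-3.79 to -9.23). Of 7 oligodendrocyte lineage markers only Pdgfra, also a gene of mesenchymal cells, was in any table. It was up-regulated in 15 tables (6.97 to 13.09), all 11 mutant tables and WT cells with ATRA at days 2 and 10 and BMS753 at days 4 and 10 among them.

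Over all tables, 61 factors had positive and 28 had negative log2 fold changes, and 0 had both signs, compared with 14 of the 1753 genes that had both. The families with the most members were the forkhead factors (15), the Zfp, Zbtb and Zscan zinc-finger proteins (13), the proneural and neuronal bHLH factors (10) and the group of Ebf, Myt1, Nfi, Tfap2, Etv and Runx factors (10). Relative to the annotation, 10 of 23 coding genes matching the proneural and neuronal bHLH patterns were listed, and 12 of 422 matching the large zinc-finger patterns. Over all 12 groups it was 82 of 641. The share of all annotated coding genes that were listed is not given here, so these fractions do not show an enrichment. In 8 of 10 members the proneural and neuronal bHLH factors were up-regulated, and in 8 of 10 the Ebf, Myt1, Nfi, Tfap2, Etv and Runx factors. Of all 1753 listed genes 64.9% were up-regulated and 34.6% down-regulated in at least 1 table. With 10 members these counts thus set neither group apart. The forkhead family was split, with 8 members up-regulated and 6 down-regulated. The Sox family was split too, with Sox9 and Sox21 among the up-regulated and Sox3 and Sox15 among the down-regulated genes.

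**Figure D1:**
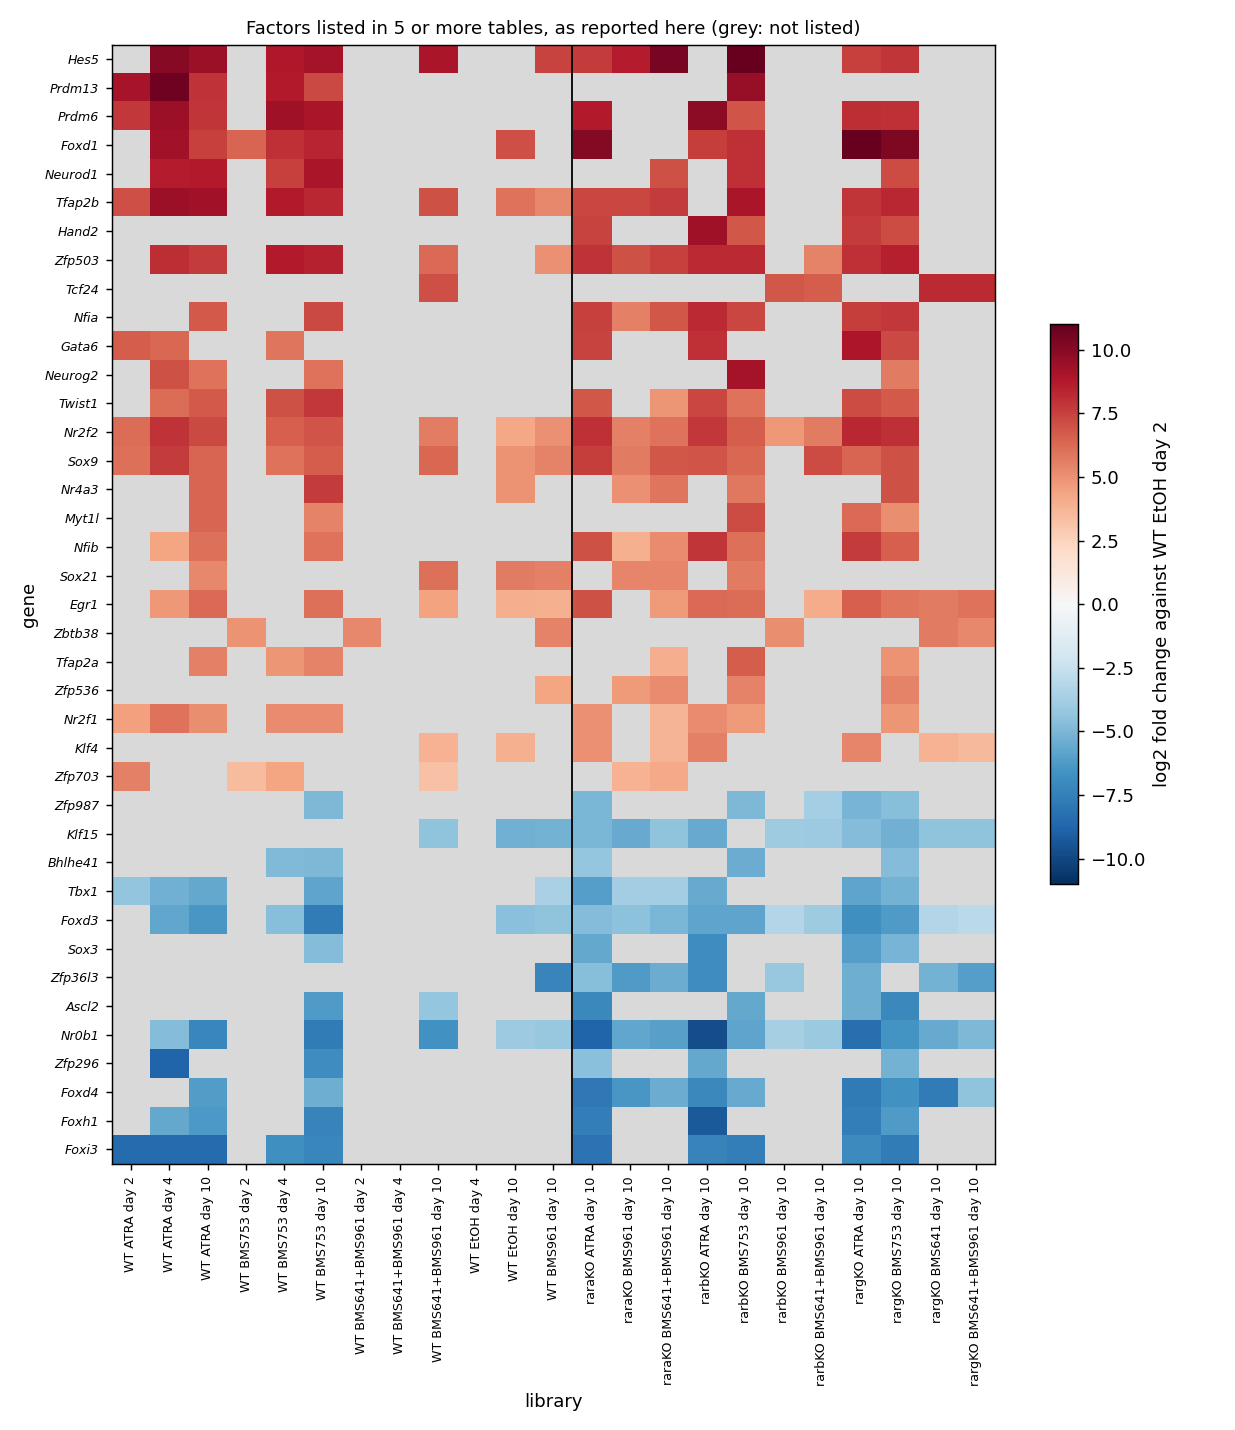
Log2 fold change against WT EtOH day 2 (colour scale) of 39 factors listed in 5 or more tables (rows, by mean value) in the 23 libraries (columns, with a line between WT and mutant libraries). Grey cells are not listed. Hes5, Tfap2b and Zfp503 are red across most day 10 libraries, Nr0b1 and Foxd3 are blue, and Hand2 is red only to the right of the line.

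In WT cells with ATRA the factors were listed early. At day 2, 13 of the 89 (14.6%) were up-regulated, beside 5.65% of all listed genes. At day 4 the number was 23 (25.8%), beside 10.2%. At day 10 it was 22 (24.7%), close to the 22.5% of all genes. The number of all genes went from 179 at day 4 to 395 at day 10. With a p limit of 0.001 in place of 0.01, 0, 11 and 5 factors were up-regulated at days 2, 4 and 10. The share of all genes at that limit was not computed, so whether the early excess of factors holds there was not tested. At day 10, 6 factors (6.74%) were down-regulated, beside 8.61% of all genes.

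**Figure D2:**
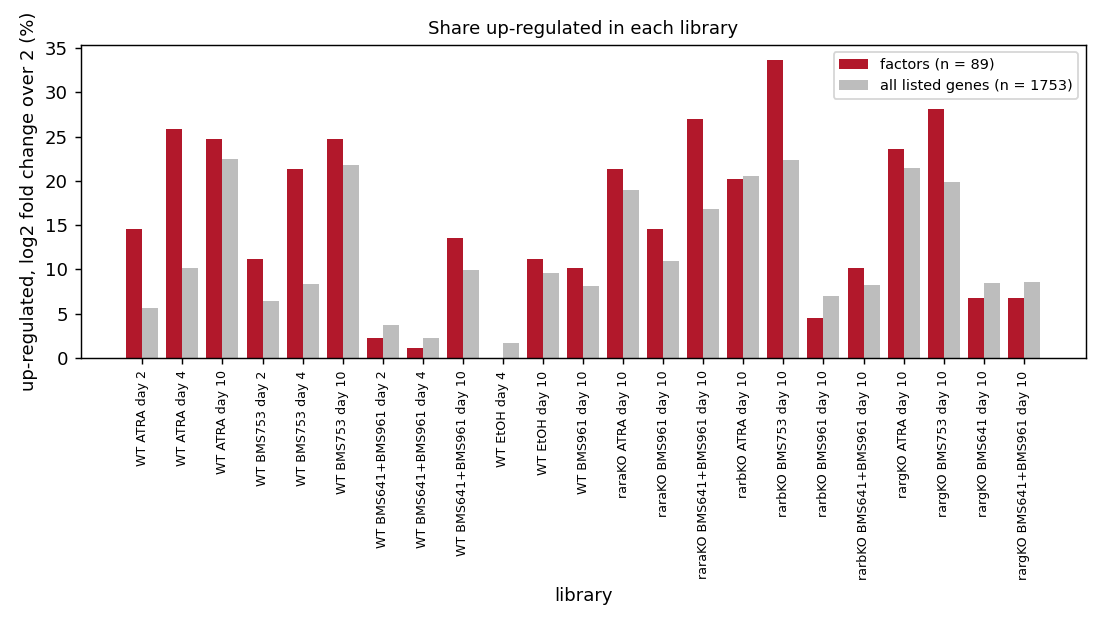
Share of the 89 factors (red bars) and of all 1753 listed genes (grey bars) with a log2 fold change over 2 in each library. At days 2 and 4 of ATRA the factors stand at 14.6% and 25.8% and all genes at 5.65% and 10.2%, and at day 10 of ATRA both are between 22.5% and 24.7%.

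Factors up-regulated at all 3 times with ATRA, here counted at a log2 fold change over 1, numbered 7 of 34 such genes in all and included Nr2f1, Nr2f2, Prdm13, Prdm6, Sox9 and Tfap2b. Prdm13 (mm9 chr4:21604627-21613110), which specifies dorsal spinal interneurons, had 9.06 ± 2.83 (implied SE) at day 2, 10.73 ± 2.87 at day 4 and 7.96 ± 2.61 at day 10. Sox9 (mm9 chr11:112643538-112649074), which acts in neural progenitors and glia, had 6.05, 7.66 and 6.41. Tfap2b, a neural crest factor, had 7.12, 9.40 and 9.25. The COUP-TF receptors Nr2f1 and Nr2f2, orphan nuclear receptors known as retinoid-induced genes, had 4.50 and 6.12 at day 2 and 5.09 and 7.22 at day 10. Each of the 7 had its highest value at day 4, but all steps between days were within 1.96 times their combined errors.

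A further 8 factors were up-regulated at days 4 and 10 but not listed at day 2, among them Hes5, Neurod1, Neurog2, Nfib and Twist1. Hes5, the Notch effector, had 10.00 ± 2.84 at day 4 and 9.40 ± 2.68 at day 10. Neurod1 (mm9 chr2:79292678-79296908), which acts after the neurogenins in neuronal differentiation, had 8.66 at day 4 and 8.76 at day 10. The day 10-only factors, 7 of 266 such genes in all, were Bhlhe22, Myt1l, Neurod2, Nfia, Nr4a3, Sox21 and Tfap2a. These include Neurod2 (5.55), Myt1l (6.39) and Bhlhe22 (7.84), which are known from differentiating neurons. Of the proneural list of 20 genes, 2 were up-regulated at day 2, 4 at day 4 and 6 at day 10, with Neurog1 (9.27) at day 4 but not listed at day 10.

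Some factors were listed only in the ligand phase. Gata6, a mesendoderm factor, had 6.62 ± 2.18 at day 2 and 6.29 ± 2.20 at day 4 and was not listed at day 10 in any WT table. Prdm12, which specifies nociceptive neurons, had 7.69 and 9.32 at the same days and was listed in no other table. Foxd2 was listed at day 4 with ATRA alone, at 9.49, beside 5.79 for its antisense transcript Foxd2os. The kit was not stated to keep strand, so reads from Foxd2 and Foxd2os cannot be told apart where they overlap. The other factors that the study discusses from this class, Hes6, Nfic, Zfp827, Foxf2, Myt1, Zfp804a and Olig2, were in no table.

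Down-regulated factors included several known from the undifferentiated state. Foxd3 (mm9 chr4:99322990-99325362), a forkhead repressor of pluripotent cells and of early neural crest, had -5.72 ± 1.93 at day 4 and -6.39 ± 2.03 at day 10 with ATRA. Nr0b1 (Dax1), a corepressor present in mouse embryonic stem cells, had -4.81 and -7.16. Foxh1, a partner of Smads in nodal signalling, had -5.65 and -6.31. Tbx1 was down-regulated from day 2, at -4.30, and Foxi3 had -8.45 at all 3 times, equal within 0.0001. Whether these Foxi3 values lie at a floor of detection was not tested, so their size may not measure the fall. Foxd4, at -6.18, was listed at day 10 but not earlier. Of 19 pluripotency-linked factors in the list, 3 were down-regulated at day 4 and 2 at day 10 with ATRA, and 0 were up-regulated.

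With BMS753 many of these factors were first listed at day 4. At day 2, 10 factors (11.2%) were up-regulated, beside 6.39% of all genes. At day 4 the number was 19 (21.3%), beside 8.33%. At day 10 it was 22 (24.7%), beside 21.8%. With a p limit of 0.001 the numbers of factors were 1, 4 and 10, again without a share of all genes. Nr2f1, Nr2f2, Prdm13, Prdm6, Sox9 and Tfap2b were each up-regulated at days 4 and 10 with BMS753 and not listed at day 2. Foxd1, a forkhead factor of kidney stroma and diencephalon, was up-regulated at days 2, 4 and 10 with BMS753 (6.41, 7.99 and 8.36). It was the 1 factor among 9 such genes, and with ATRA it was listed at days 4 and 10 (9.24 and 7.52). In all, 8 factors, such as Zbtb38 (4.92), Zfp365 (3.78), Gli1 (3.46) and Sox13 (2.40), were up-regulated at day 2 only with BMS753, of 90 such genes. Values in the BMS753 day 2 table were small, down to 1.82 in absolute terms, and 0 of 8 pluripotent markers were down-regulated there, against 5 with ATRA at day 2.

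At day 10 25 factors had values with both ATRA and BMS753 in WT cells, with a median difference of -0.07 and errors of 2.61 to 3.74 on each difference. BMS753 had 13 down-regulated factors (14.6%), beside 9.13% of all genes, and ATRA 6. The 10 factors listed with BMS753 only included Atoh1 (8.91 ± 2.60), which specifies hindbrain and dorsal spinal neurons, Ebf3 (4.75), Sox3 (-4.76) and Zfp296 (-6.79). Bhlhe22, Neurod2 and Sox21 were listed with ATRA only. The matching counts over all genes are not given here, so these lists show no difference particular to the factors.

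The combination of BMS641 and BMS961 moved few factors in the first days. At day 2, 2 factors (2.25%) were up-regulated, beside 3.71% of all genes: Zbtb38 (5.26 ± 1.81), a methyl-CpG-binding zinc-finger protein, and Zbtb37 (4.04 ± 1.21). At day 4, 1 factor (1.12%) was up-regulated, beside 2.22%, and this was Sox18 (7.02 ± 2.46), an endothelial Sox factor. Sox13 (1.73) and Foxo6 (-2.93) and Zbtb32 (-8.04) completed the 4 listed.

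At day 10 the combination up-regulated 12 factors (13.5%), beside 9.87% of all genes, and down-regulated 5 (5.62%), beside 8.5%. All 12 first passed the threshold at day 10, as did 160 of the 173 genes up-regulated then. Hes5 had 8.94 ± 2.38, Foxb1 8.15, Tcf24 7.06, Tfap2b 7.0 ± 1.95, Sox9 6.30 ± 1.74 and Nr2f2 5.60 ± 1.55. Klf1 had -7.21, Nr0b1 -6.68 and Klf15 -4.43. Neurod1, Neurog2, Nfia, Nfib, Nr2f1 and Twist1, all up-regulated by ATRA and BMS753 at day 10, were not listed with the combination. Of the 20 proneural genes, 1 was up-regulated.

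Culture with vehicle moved many of the same factors. With EtOH at day 4, 0 factors passed the threshold, beside 1.65% of all genes, and Foxo3 was listed at 1.67. At day 10, 10 factors (11.2%) were up-regulated, beside 9.53%, and 4 (4.49%) down-regulated, beside 7.64%. Zfp456 had 7.89, Foxd1 7.11, Tfap2b 6.00 ± 1.99, Sox21 5.74, Nr4a3 4.96, Sox9 4.95 ± 1.77 and Nr2f2 4.26 ± 1.54. Sox15 had -7.09, Klf15 -5.26, Foxd3 -4.63 and Nr0b1 -4.0. Seen against EtOH at day 10, Tfap2b was higher by 3.25 ± 3.16 with ATRA, 2.27 ± 3.06 with BMS753 and 1.00 ± 2.78 with the combination, all within 1.96 times their errors. Hes5 and Zfp503 were up-regulated with the combination and not listed with EtOH. BMS961 alone in WT cells up-regulated 9 factors (10.1%), beside 8.16%, with Hes5 at 7.42 and Zfp503 at 5.06.

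**Figure D3:**
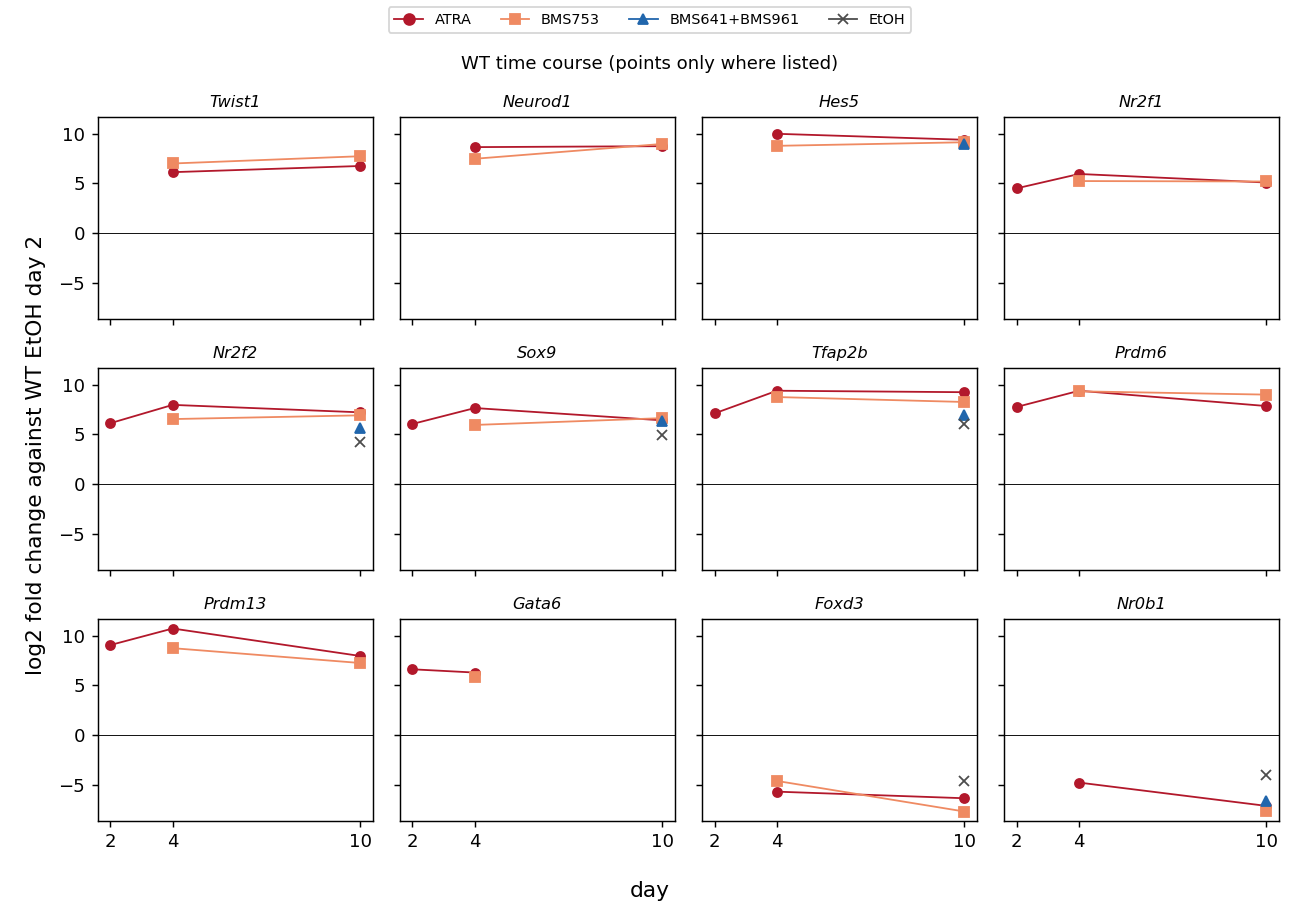
Log2 fold change against WT EtOH day 2 of 12 factors in WT cells at days 2, 4 and 10 with ATRA (circles), BMS753 (squares), BMS641 + BMS961 (triangles) or EtOH (crosses), 1 library per point and points only where the gene is listed. Nr2f1, Nr2f2, Sox9, Tfap2b, Prdm6 and Prdm13 have ATRA points from day 2 and BMS753 points from day 4, and the combination has points at day 10 only.

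The RARα agonist program, taken as what BMS753 up-regulated in each of WT, rarbKO and rargKO cells at day 10, held 19 factors of 239 genes. Of these, 7 (36.8%) were also up-regulated by the combination in both WT and raraKO cells (among them Egr1, Hes5, Nr2f2, Sox9, Tfap2b and Zfp503), beside 27.6% of all genes in the program. In raraKO but not WT cells the combination up-regulated 8 more (42.1%): Atoh1, Neurod1, Nfia, Nfib, Nr2f1, Nr4a3, Tfap2a and Twist1, beside 47.7% of the program. In neither line did it up-regulate Foxd1, Myt1l, Neurog2 and Prdm6. The share of factors re-induced was thus near that of the program as a whole.

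The RefSeq promoter table (GRCm38.p6) matched 61 of the 89 factors, 4 of them among the 7 that the combination up-regulated in both lines. Their 250 bases before the start are shown 5′ to 3′ on the gene's strand, since these genes were up-regulated together by BMS753 and by the combination. Capitals mark the E-box CANNTG, the bHLH recognition sequence, and TGGGAA, the core bound by the Notch mediator RBPJ, on either strand. The windows are chr1:19211804-19212053 (+) for Tfap2b, chr4:154960673-154960922 (+) for Hes5, chr7:70366747-70366996 (-) for Nr2f2 and chr14:21989602-21989851 (-) for Zfp503.
Tfap2b: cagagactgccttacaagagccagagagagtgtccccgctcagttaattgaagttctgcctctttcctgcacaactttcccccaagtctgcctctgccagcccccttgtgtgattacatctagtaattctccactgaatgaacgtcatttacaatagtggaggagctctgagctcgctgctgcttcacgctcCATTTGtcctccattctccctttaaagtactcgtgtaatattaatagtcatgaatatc
Hes5: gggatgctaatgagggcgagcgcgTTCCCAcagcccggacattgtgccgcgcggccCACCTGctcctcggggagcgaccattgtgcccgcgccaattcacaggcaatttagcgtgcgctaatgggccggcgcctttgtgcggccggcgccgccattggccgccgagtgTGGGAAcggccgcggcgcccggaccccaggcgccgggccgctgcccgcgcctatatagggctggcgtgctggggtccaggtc
Nr2f2: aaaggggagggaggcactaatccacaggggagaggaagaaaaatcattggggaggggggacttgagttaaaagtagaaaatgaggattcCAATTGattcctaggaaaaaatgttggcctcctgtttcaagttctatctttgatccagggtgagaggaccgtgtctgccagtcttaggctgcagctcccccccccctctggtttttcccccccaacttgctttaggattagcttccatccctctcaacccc
Zfp503: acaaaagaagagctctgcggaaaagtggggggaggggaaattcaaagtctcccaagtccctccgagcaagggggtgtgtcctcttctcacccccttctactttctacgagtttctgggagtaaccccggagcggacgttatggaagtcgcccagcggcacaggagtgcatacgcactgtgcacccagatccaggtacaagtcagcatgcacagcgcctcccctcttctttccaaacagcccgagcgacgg
The Hes5 window held TGGGAA 2 times and the E-box 1 time, those of Tfap2b and Nr2f2 held 1 E-box, and that of Zfp503 held neither. Over the 74 windows of all matched factors, 54.1% held the E-box, beside 66.2% of 32851 windows in the table, and 16.2% held TGGGAA, beside 21.6%. The GC box GGGCGG was in 54.1%, beside 32.7%, and the median GC content was 60.8%, beside 52.4%. The retinoid-receptor half-site AGGTCA was in 8.1%, beside 14.0%. The direct repeats DR1, DR2 and DR5 were in 0 of 74 windows and in 0.164%, 0.174% and 0.0883% of all windows. A match describes letters only and is no binding site.

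In raraKO cells the combination up-regulated 24 factors (27.0%), beside 16.8% of all genes, where in WT cells it up-regulated 12. With a p limit of 0.001 the numbers were 8 in raraKO and 8 in WT cells, so the difference in number between the lines depended on that limit. It down-regulated 9 (10.1%), beside 6.67%. Neurod1 had 7.04 ± 2.52, Atoh1 7.44 ± 2.47, Nfia 6.85, Nfib 5.18, Nr4a3 5.91, Twist1 4.85, Tfap2a 3.96 and Nr2f1 3.74. Hes5 had 10.42 ± 2.44 and Tfap2b 7.66 ± 2.04. The 20 factors listed in raraKO but not WT cells with the combination included the down-regulated Foxd3 (-5.04) and Foxd4 (-5.45). In all, 411 genes were listed for this raraKO library and 322 for its WT counterpart. How many of all genes were listed for raraKO only is not given here, so the 20 do not set the factors apart.

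For the 13 factors with values in both lines the median difference was 0.39 in the direction of raraKO, and the largest was that of Hes5, 1.48 ± 3.41. The errors of these differences, 1.87 to 3.53 on the log2 scale, could not show changes of several fold, and only factors past the p limit in both tables could be compared. The proneural list counted 5 of 20 up-regulated with the combination in raraKO cells, against 1 in WT cells. In this library 2 of 10 neuron markers (Map2 at 3.69 and Dcx at 5.55) and 4 of 7 mesenchyme markers were up-regulated, against 1 and 1 in WT cells. The part of these cell types in the factor values was not tested. BMS961 alone in raraKO cells up-regulated 13 factors (14.6%), beside 10.9%, including Nfia (5.58) and Nfib (3.95) but not Neurod1, Atoh1 or Twist1.

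**Figure D4:**
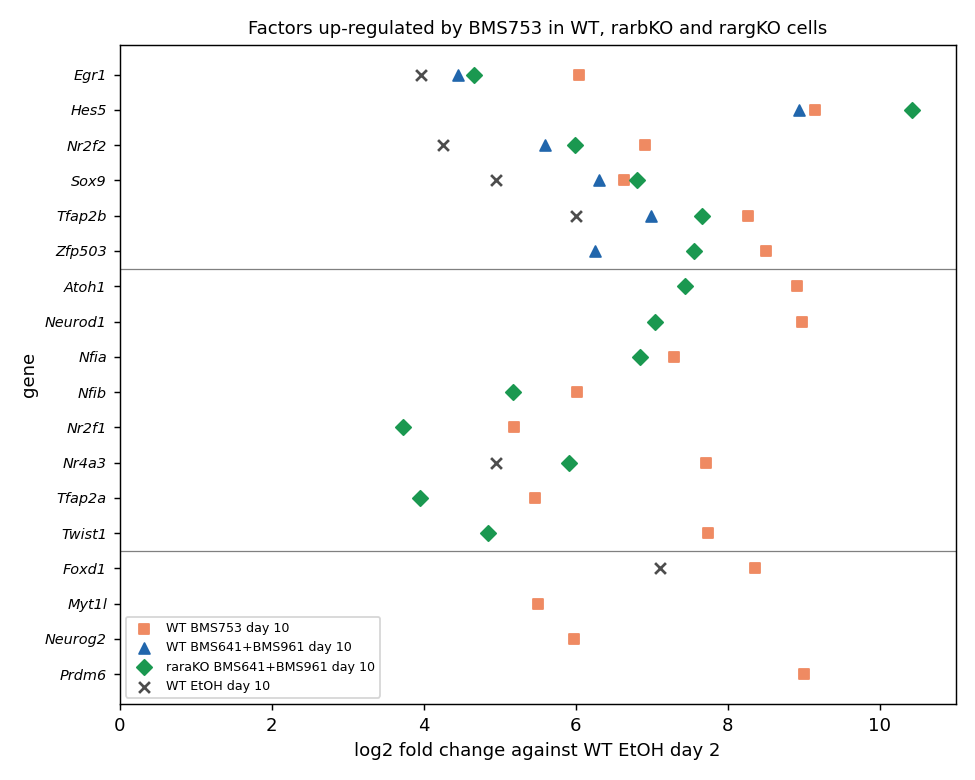
Log2 fold change against WT EtOH day 2 of 18 factors up-regulated by BMS753 in WT, rarbKO and rargKO cells at day 10, in WT cells with BMS753 (squares), WT cells with the combination (triangles), raraKO cells with the combination (diamonds) and WT cells with EtOH (crosses). Lines separate the 6 factors with a triangle and a diamond, the 8 with a diamond but no triangle, and the 4 with neither.

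With ATRA many of the neuronal factors listed in WT cells were not listed in the 3 mutant lines, and mesodermal factors were up-regulated there that no WT day 10 table listed. In raraKO cells ATRA up-regulated 19 factors (21.3%), beside 19% of all genes, and down-regulated 15 (16.9%), beside 10.4%. In rarbKO cells it up-regulated 18 (20.2%), beside 20.5%, and in rargKO cells 21 (23.6%), beside 21.4%. Of the 20 proneural genes, 6 were up-regulated by ATRA in WT cells, 1 in raraKO, 0 in rarbKO and 4 in rargKO cells. Of 19 mesoderm and heart factors the numbers were 2, 5, 6 and 5. In the same order Tbx1 of that list was down-regulated, at -5.65, -6.08, -5.50 and -5.79.

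Neurod1, Neurod2, Neurog2, Nr4a3, Prdm13, Sox21 and Tfap2a were listed with ATRA at day 10 in WT cells and in none of the 3 mutant lines with ATRA. In rarbKO cells Hes5 and Tfap2b were not listed either. Nr4a3 and Sox21 were also up-regulated in WT cells with EtOH at day 10. The share of all genes with this pattern is not given here, so it does not show a loss particular to these factors. With a p limit of 0.001, ATRA at day 10 up-regulated 5 factors in WT, 12 in raraKO, 8 in rarbKO and 9 in rargKO cells. Hand2 (mm9 chr8:59799780-59803314), a bHLH factor of heart, limb and sympathetic lineages, had 7.47 ± 2.20 in raraKO, 9.32 ± 2.43 in rarbKO and 7.73 ± 2.32 in rargKO cells with ATRA and was in no WT table. Gata6 had 7.46, 8.07 and 8.86 in the same libraries. Tbx5, a heart and forelimb factor, was listed only in rarbKO cells with ATRA (8.38 ± 2.61), where the Wnt-linked factor Tcf7 (-5.27) and the Zic factor Zic5 (-6.78) were also listed only there.

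Foxc1 (mm9 chr13:31898515-31902504), a mesenchymal forkhead factor named here after its values were seen, had 6.19 ± 1.94, 5.67 ± 2.00 and 5.88 ± 2.02 with ATRA in raraKO, rarbKO and rargKO cells and 4.92 ± 1.86 in rargKO cells with BMS753. It was in no WT table. Of 7 mesenchyme markers, 6 were up-regulated by ATRA in each mutant line, against 5 in WT cells. With BMS753, 4 were up-regulated in rargKO cells, against 5 in rarbKO and 5 in WT cells. Of 10 neuron markers, ATRA up-regulated 1 in raraKO, 1 in rarbKO and 4 in rargKO cells, against 5 in WT cells. Their part in the factor values was not tested.

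With BMS753 both mutant lines tested had up-regulated neuronal factors. In rarbKO cells BMS753 up-regulated 30 factors (33.7%), the highest count among the 23 libraries, beside 22.3% of all genes. This rank depended on the p limit. At 0.001 the number was 10, beside 10 in WT and 11 in rargKO cells with BMS753 and 12 in raraKO cells with ATRA. In rarbKO cells with BMS753 the proneural list counted 9 of 20, and the neuron markers 6 of 10. Neurog2 had 9.14 ± 2.38, against 5.98 ± 2.18 in WT cells with BMS753, a difference of 3.17 ± 3.23 that is within its error. Neurog1 (7.20), Neurod2 (5.76), Bhlhe22 (7.17) and Ebf1 (4.67) were listed in rarbKO cells with BMS753 but not in WT cells with it. Hes5 had its highest value of all libraries there, at 11.96 ± 2.75, and the Notch-linked repressors Hes3 (7.39) and Heyl (6.68) were listed in no other library.

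In rargKO cells BMS753 up-regulated 25 factors (28.1%), beside 19.9%, with Neurod1 at 7.21, Neurog2 at 5.73 and Atoh1 at 7.82. These cells also had Hand2 (7.17), Gata6 (7.25), Foxa1 (6.90) and Foxc1, and 5 of the 19 mesoderm and heart factors were up-regulated, against 3 in rarbKO and 2 in WT cells with BMS753. Tbx1 of that list was down-regulated in rargKO (-5.18) and WT cells (-5.78) with BMS753 and not listed in rarbKO cells with it. Factors with values in WT cells too had median differences from them of -0.03 in rarbKO (27 factors) and -0.16 in rargKO cells (31 factors), with errors of 2.47 to 3.79 on each difference.

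In rarbKO and rargKO cells the RARβ and RARγ agonists up-regulated few factors. The combination up-regulated 9 (10.1%), beside 8.27% of all genes, in rarbKO cells and 6 (6.74%), beside 8.61%, in rargKO cells. BMS961 alone up-regulated 4 (4.49%), beside 7.02%, in rarbKO cells, and BMS641 alone 6 (6.74%), beside 8.5%, in rargKO cells. In rargKO cells Hes5, Nr2f2, Sox9, Tfap2b and Zfp503 were not listed with the combination, and in rarbKO cells Hes5 and Tfap2b were not. Tcf24, at 6.69 to 8.23, and Klf10, an immediate early zinc-finger gene at 2.95 to 3.68, were listed in all 4 of these libraries. Tcf24 was otherwise listed in WT cells with the combination alone (7.06), and Klf10 in no other library. Klf10 values near 2.95 lay under the smallest value listed in any raraKO library (3.33) or any day 10 library with ATRA or BMS753 (4.17). Its absence from those libraries thus does not set the lines apart.

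Zfp36l3, a rodent zinc-finger RNA-binding protein, was down-regulated mostly in mutant libraries. It had -4.70, -6.21 and -5.42 in raraKO cells with ATRA, BMS961 and the combination, and -6.82 and -4.21 in rarbKO cells with ATRA and BMS961. In rargKO cells it had -5.38 with ATRA, -5.23 with BMS641 and -6.05 with the combination. The single WT library that listed it was that with BMS961, where it was lowest (-7.24).

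**Figure D5:**
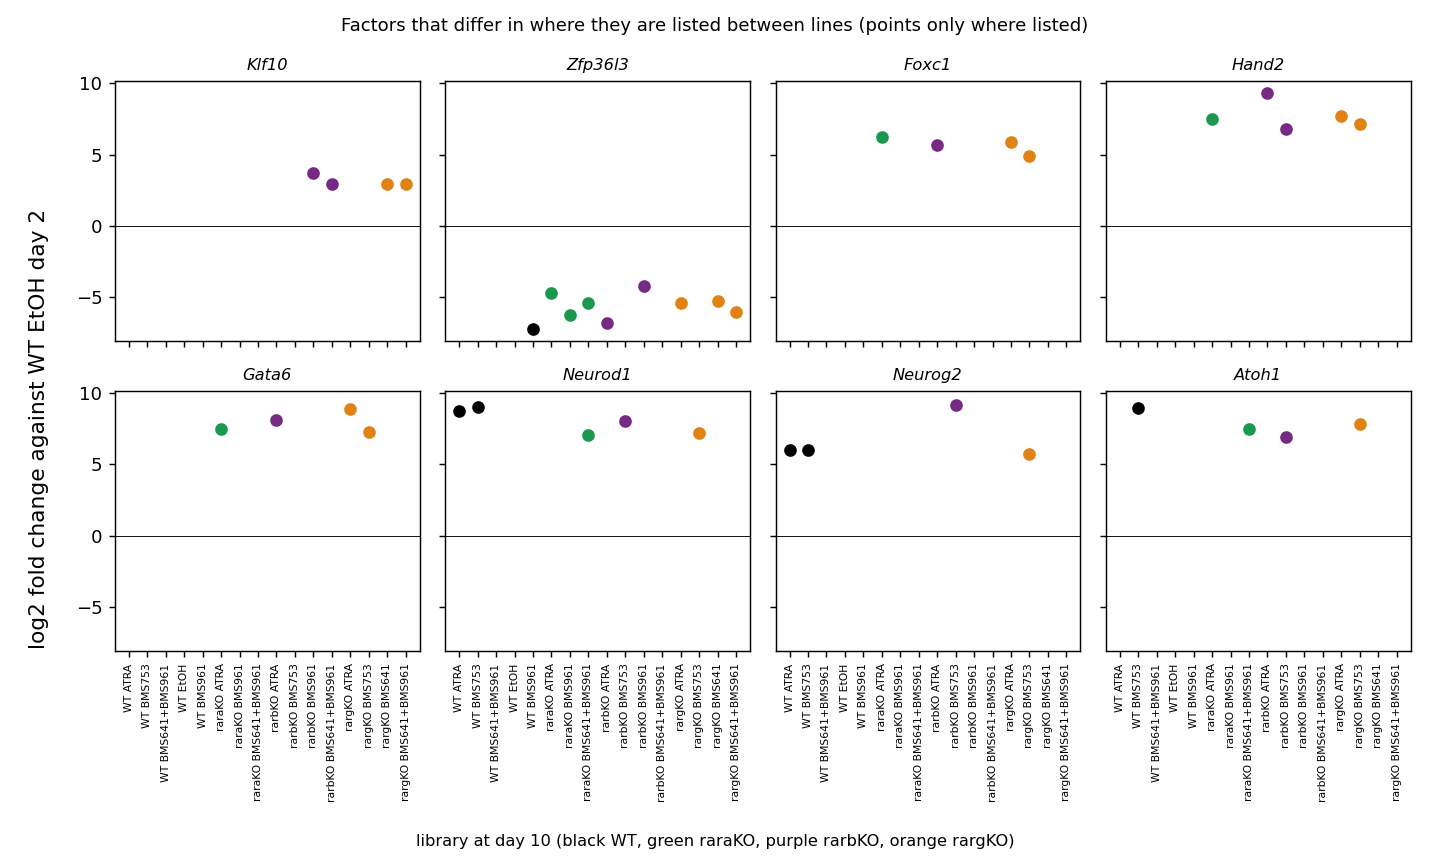
Log2 fold change against WT EtOH day 2 of 8 factors in the 16 day 10 libraries, coloured by line (black WT, green raraKO, purple rarbKO, orange rargKO), with points only where the gene is listed. Klf10 has points in 4 rarbKO and rargKO libraries, and Foxc1, Hand2 and Gata6 in mutant libraries with ATRA or BMS753. Neurod1 and Neurog2 have points in WT libraries with ATRA or BMS753 and in rarbKO and rargKO libraries with BMS753. Neurod1 also has a point in raraKO cells with the combination, and neither gene has a point in a mutant library with ATRA. Klf10 values near 2.95 lay under the smallest values listed in raraKO libraries and in those with ATRA or BMS753.

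Across the 7 libraries with ATRA or BMS753 at day 10, 13 factors were listed in every one (166 of all genes). The 9 up-regulated ones were Egr1, Foxd1, Nfia, Nfib, Nr2f2, Prdm6, Sox9, Twist1 and Zfp503, and the 4 down-regulated ones were Foxd3, Foxd4, Foxi3 and Nr0b1. Prdm6, a repressor of the smooth muscle lineage, had 6.94 to 9.86 in these 7 and was in none of the other 9 day 10 tables. Sox9 had 6.28 to 7.62 in the 7, and Nr2f2 6.64 to 8.30. Nr0b1 was listed in all 16 day 10 tables, from -3.68 in rarbKO cells with BMS961 to -9.74 in rarbKO cells with ATRA, and was the 1 factor with this breadth. Its values in the 7 libraries with ATRA or BMS753 were -5.80 to -9.74, and those in the other 9 were -3.68 to -6.68, so the groups overlap.

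Egr1, an immediate early gene, was up-regulated in 14 of 16 day 10 tables, from 3.90 in WT cells with BMS961 to 6.98 in raraKO cells with ATRA. Klf4, a pluripotency and epithelial factor, was up-regulated in 8 of 16, at 3.56 to 5.57, and was the 1 of 19 pluripotency-linked factors with positive values, while 6 were down-regulated. Klf15 was down-regulated in 13 of 16 at -3.94 to -5.55, EtOH included. Of 11 gliogenic factors 4 (Sox9, Nfia, Nfib and Hes5) were up-regulated in WT cells with ATRA or BMS753, in raraKO cells with each of 3 treatments, in rarbKO cells with BMS753 and in rargKO cells with ATRA or BMS753. Counting listed genes only, of 7 neural crest genes 6 were up-regulated and 1 down-regulated in at least 1 table, of 4 Notch effectors 3 and 1, of 3 endoderm genes 3 and 0, of 5 ventral neural tube genes 5 and 0, of 4 retinoid-linked nuclear receptors 3 and 1, and of 4 immediate early genes 4 and 0. Of all 1753 listed genes 64.9% were up-regulated and 34.6% down-regulated in at least 1 table, so with so few genes in a list these counts set no list apart.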

How the data were processed

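Poly-T captured mRNA of P19 cells was sequenced by the authors, with NEBNext Ultra II libraries. According to the submitters' processing notes, reads were mapped to mm9 with Bowtie2 2.1.0, assigned with featureCounts and compared with DESeq2. The deposited tables hold the authors' log2 fold change and nominal p-value per gene, for 1 library against WT EtOH day 2 and only where p was up to 0.01. The deposited standard error in the WT ATRA day 2 table was treated as a score, and for its 144 genes the implied errors matched it within a relative 4.27e-08. Read counts were not used here.

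Factors were matched by symbol. The threshold was a log2 fold change of 2 (1 for time order), and no p-value was computed, since each condition has 1 library. Differences between libraries carry the root of the summed squared errors, an upper bound because the reference is shared. The calling step and the recovery of implied errors were tested on simulated data without noise. Members and gene lists were chosen with earlier results of these data known. Genes named are up to 4 per family by number of tables, the 8 highest and 5 lowest in WT ATRA day 10, the 5 highest and 3 lowest in WT and raraKO with the combination and in EtOH day 10, re-induced, early or ubiquitous factors, those the study names, and up to 4 per list. Others were named after their values were seen. Some members that counts include are not reported here by name. Coordinates are from the mm9 annotation and promoters from RefSeq. Alternatives were thresholds of 1, 2 and 4, a p limit of 0.001, subtraction or removal of the EtOH response, another definition of the BMS753 set, and removal of 11 members that do not bind DNA themselves. Values were computed in Python 3.11.15 (scipy 1.17.1, pandas 2.3.3) and plotted with matplotlib 3.10.9.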

Additional observations from a re-analysis of the deposited data

How the results depend on the processing

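A p limit of 0.001 lowered most counts. It was applied to the factors only, so these counts have no share of all genes beside them. The numbers of up-regulated factors at day 10 became 5 (from 22) in WT cells with ATRA, 10 (from 22) with BMS753, 1 (from 10) with EtOH, 12 (from 19) in raraKO cells with ATRA and 8 (from 24) with the combination, where WT cells with the combination had 8 (from 12) and the difference between those lines was gone, and that of down-regulated factors in WT cells with ATRA became 1 (from 6). Those with ATRA at days 2 and 4 became 0 (from 13) and 11 (from 23). The factors up-regulated at day 2 or 4 became 11 (from 26) with ATRA, 5 (from 27) with BMS753 and 1 (from 4) with the combination. Those at days 2, 4 and 10 became 0 (from 7) with ATRA and 0 (from 1) with BMS753, those at day 10 only with ATRA 1 (from 7), the re-induced factors 1 (from 8), and those listed with the combination in both WT and raraKO cells 7 (from 13). With the EtOH day 10 value subtracted, 5 factors (from 12) were up-regulated by the combination in WT cells. Without factors that moved in EtOH, 3 were up-regulated at all 3 times with ATRA and 0 with BMS753, and 5 at day 10 only with the combination. The other 49 alternatives of these counts stayed within 1.5 times, among them those with thresholds of 1, 2 and 4. Several of these could not come out otherwise. No day 10 value was nearer to 0 than 2.71, so a threshold of 1 could not change day 10 counts. The smallest day 10 values in WT cells with ATRA (4.73) and BMS753 (4.46) and raraKO cells with ATRA (4.17) made a threshold of 4 as empty. With ATRA in WT cells no value was under 3.55, so time order could not change at 2. Leaving out a replicate was not possible with 1 library per condition. No paired analysis was possible because each group holds 1 library and every comparison shares the same reference library. Since a day 10 table held no value under 2.71 to 4.73, smaller changes could not be seen, and a log2 fold change of 5.05 was needed at the median error.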

Other observations

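Of the 89 factors, 20 (22.5%) were listed in mutant tables only, beside 23.5% of all genes, 19 (21.3%) in WT tables only, beside 25.8%, and 50 in both. The mutant-only factors included Runx1, a blood and mesenchymal factor, with 6.01 in rarbKO and 5.19 in rargKO cells with ATRA, and Ebf2, with -6.86 in rarbKO cells with BMS961 and -4.75 in rargKO cells with the combination. Ebf2 thus had negative values while Ebf1 (3.96 and 4.67) and Ebf3 (3.84 to 5.24) had positive ones in other libraries. Hes7, the segmentation clock repressor, and Tbx6, the paraxial mesoderm factor, were down-regulated in raraKO cells with the combination, at -5.06 and -4.29.

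Some values were equal within 0.0001 in separate libraries. Sox15 had -7.09 in WT cells with BMS753 and with EtOH at day 10, and Zfp456 had 6.73 in WT cells with BMS753 at day 2 and in rargKO cells with BMS641 at day 10. Whether the Sox15 values lie at a floor of detection was not tested, since read counts were not used. By the study's cell type marker lists, 18 of the factors (20.2%) were neuron, 9 (10.1%) astrocyte and 2 (2.25%) oligodendrocyte precursor markers, beside 18.8%, 5.59% and 5.7% of all listed genes.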
